A study of Mus musculus with 4 samples.

Results

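Macrophages of the arterial wall take up cholesterol from lipoproteins and, when more enters than leaves, fill with lipid droplets and are called foam cells. The 10 genes described here act along that route: the lipid uptake genes Cd36 and Lpl, the lipid receptor Trem2, the cholesterol exporters Abca1 and Abcg1, the lipoprotein carrier Apoe, the fatty acid binding proteins Fabp4 and Fabp5, and Gpnmb and Spp1, which mark lipid-laden macrophages of lesions. They were chosen by name for these roles, with earlier results of these data known. All 10 were found among the 31053 genes of the count matrices. On GRCm38 the exporters lie at chr4:53030787-53159895 (Abca1, minus strand) and chr17:31057675-31117988 (Abcg1, plus strand), Apoe at chr7:19696109-19699188 (minus), Gpnmb at chr6:49036546-49070929 (plus), and the neighbours Fabp5 and Fabp4 at chr3:10012548-10016607 (plus) and chr3:10204088-10208576 (minus).

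As background, modified lipoproteins enter macrophages through scavenger receptors such as Cd36. Their cholesterol is stored as esters in droplets or handed by Abca1 and Abcg1 to apolipoproteins and high-density lipoprotein, and sterols inside the cell switch on the liver X receptors, nuclear receptors whose targets include Abca1, Abcg1, Apoe and Lpl. Several of the genes also have well known roles outside macrophages: Cd36 and Fabp4 carry fatty acids through capillary endothelium, and Apoe is made by smooth muscle cells and fibroblasts as well.

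The data were single-cell RNA-seq of aortic arches from male mice that were 3 months old at the start. Control mice carried loxP-flanked Nfe2l2 alleles (labelled Nrf2Cdh5Lox, written here as Nrf2flox/flox), and Nrf2Cdh5tKO mice carried in addition a Cdh5-Cre transgene that removes the DNA-binding part of Nfe2l2. Cdh5 drives Cre in endothelium and in a part of the blood cells, so the deletion is not limited to endothelium. Within each genotype label, 1 library came from standard diet mice given saline (4 mice pooled) and 1 from mice given an atherosclerosis-inducing treatment with 21 weeks of high-fat diet (3 mice pooled). The high-fat diet libraries therefore differ from the standard diet libraries in treatment, diet and mice together, and these cannot be told apart. With 1 pooled library per condition there was no replicate and no test was made. Intervals are 95% intervals that cover counting error only, and mouse-to-mouse spread is unknown.

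The 4 libraries held 15599 barcodes and between 12276546 and 98754487 UMIs (unique molecular identifiers, each counting 1 captured transcript). After filtering, 12689 cells met the marker gate of 1 cell type, with a median of 10187 to 14838 UMIs per cell in each library. Macrophages numbered 675 and 295 cells in the standard diet Nrf2flox/flox and Nrf2Cdh5tKO libraries, and 87 and 239 cells in their high-fat diet libraries. The 10 macrophage markers, none of them a member, summed to 14878 to 19446 CPM in all macrophages and to 75.1 to 179 CPM in fibroblasts, where CPM is the UMIs of a gene per 1000000 UMIs of that cell type and library. Barcodes seen in more than 1 library numbered 30, of which 15 were gated cells. Nfe2l2 itself was not lower under the Nrf2Cdh5tKO label: in endothelial cells it stood at 195 and 170 CPM in the Nrf2flox/flox libraries (standard, then high-fat diet) and at 373 and 389 in the Nrf2Cdh5tKO libraries, and in macrophages at 434 to 489 in all 4. Counts per gene do not separate the deleted exon from the rest, so they neither check nor contradict the labels, and each genotype name below means the library so labelled.

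Of the 10 members, 6 had a promoter in the RefSeq table for GRCm38.p6. Those of Abca1 and Gpnmb are shown, since Abca1 was at least 1.5-fold higher on the high-fat diet in macrophages, monocytes, fibroblasts, smooth muscle cells and endothelial cells of Nrf2flox/flox, and Gpnmb was the member with the closest values under both genotype labels in fibroblasts. The 250 bases before the annotated start are printed 5′ to 3′ on the gene's strand, Abca1 from chr4:53159896-53160145 (minus strand) and Gpnmb from chr6:49036268-49036517 (plus strand). The capitals in Abca1 mark a pair of NGGTNA letters 4 bases apart, the form in which liver X receptors are known to bind, read here on the opposite strand.
Abca1: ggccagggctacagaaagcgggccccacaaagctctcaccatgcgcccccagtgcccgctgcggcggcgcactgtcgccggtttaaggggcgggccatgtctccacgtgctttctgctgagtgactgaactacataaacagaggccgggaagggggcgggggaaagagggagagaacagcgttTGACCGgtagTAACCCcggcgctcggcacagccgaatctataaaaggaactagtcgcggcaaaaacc
Gpnmb: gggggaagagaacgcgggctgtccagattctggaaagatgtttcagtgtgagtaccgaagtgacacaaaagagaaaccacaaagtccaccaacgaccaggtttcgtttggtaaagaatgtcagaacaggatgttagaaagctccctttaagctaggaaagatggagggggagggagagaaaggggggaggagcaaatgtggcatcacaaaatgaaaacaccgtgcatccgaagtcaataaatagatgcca

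The pair lies 67 to 52 bases before the Abca1 start, and 204 of 32851 promoters of this length (0.621%) held it on either strand. The Abca1 window also held CACGTG 147 to 142 bases before the start, as did 6.02% of promoters. In the Gpnmb window neither was found, nor were TCATGTG (3.25% of promoters) and TCACGTG (3.13%), the letters that Mitf and its relatives bind. TCACGTG contains CACGTG. These matches are letters in a window, chosen with earlier results known, and say nothing on binding in these cells.

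The members were spread over very different cell types (the plot of levels by cell type and library). Levels are in CPM, and each gene was compared with itself across cell types, never with another gene. Trem2, a receptor for lipids on macrophages, was largely a macrophage transcript: 104 to 158 CPM in macrophages, 31.0 to 62.3 in monocytes and 0.648 to 2.28 in fibroblasts. After every cell was thinned to 2000 UMIs, 19.7 to 23.8% of macrophages held a Trem2 UMI (44.1 to 47.4% unthinned) against 0 to 0.585% of smooth muscle cells and 0 to 2.99% of T cells. Apoe was highest in Lyve1+ macrophages (15695 to 23736 CPM), followed by Lyve1-low macrophages (7570 to 14041), and endothelial cells (3006 to 4920) lay above fibroblasts (1992 to 2897) in all 4 libraries, while the monocyte range (1545 to 3024) overlapped both. Lpl, the lipase that frees fatty acids from triglyceride, was highest in cavity macrophages (686 to 1728), and its range in endothelial cells (220 to 426) met that in fibroblasts (202 to 254).

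**Figure D1:**
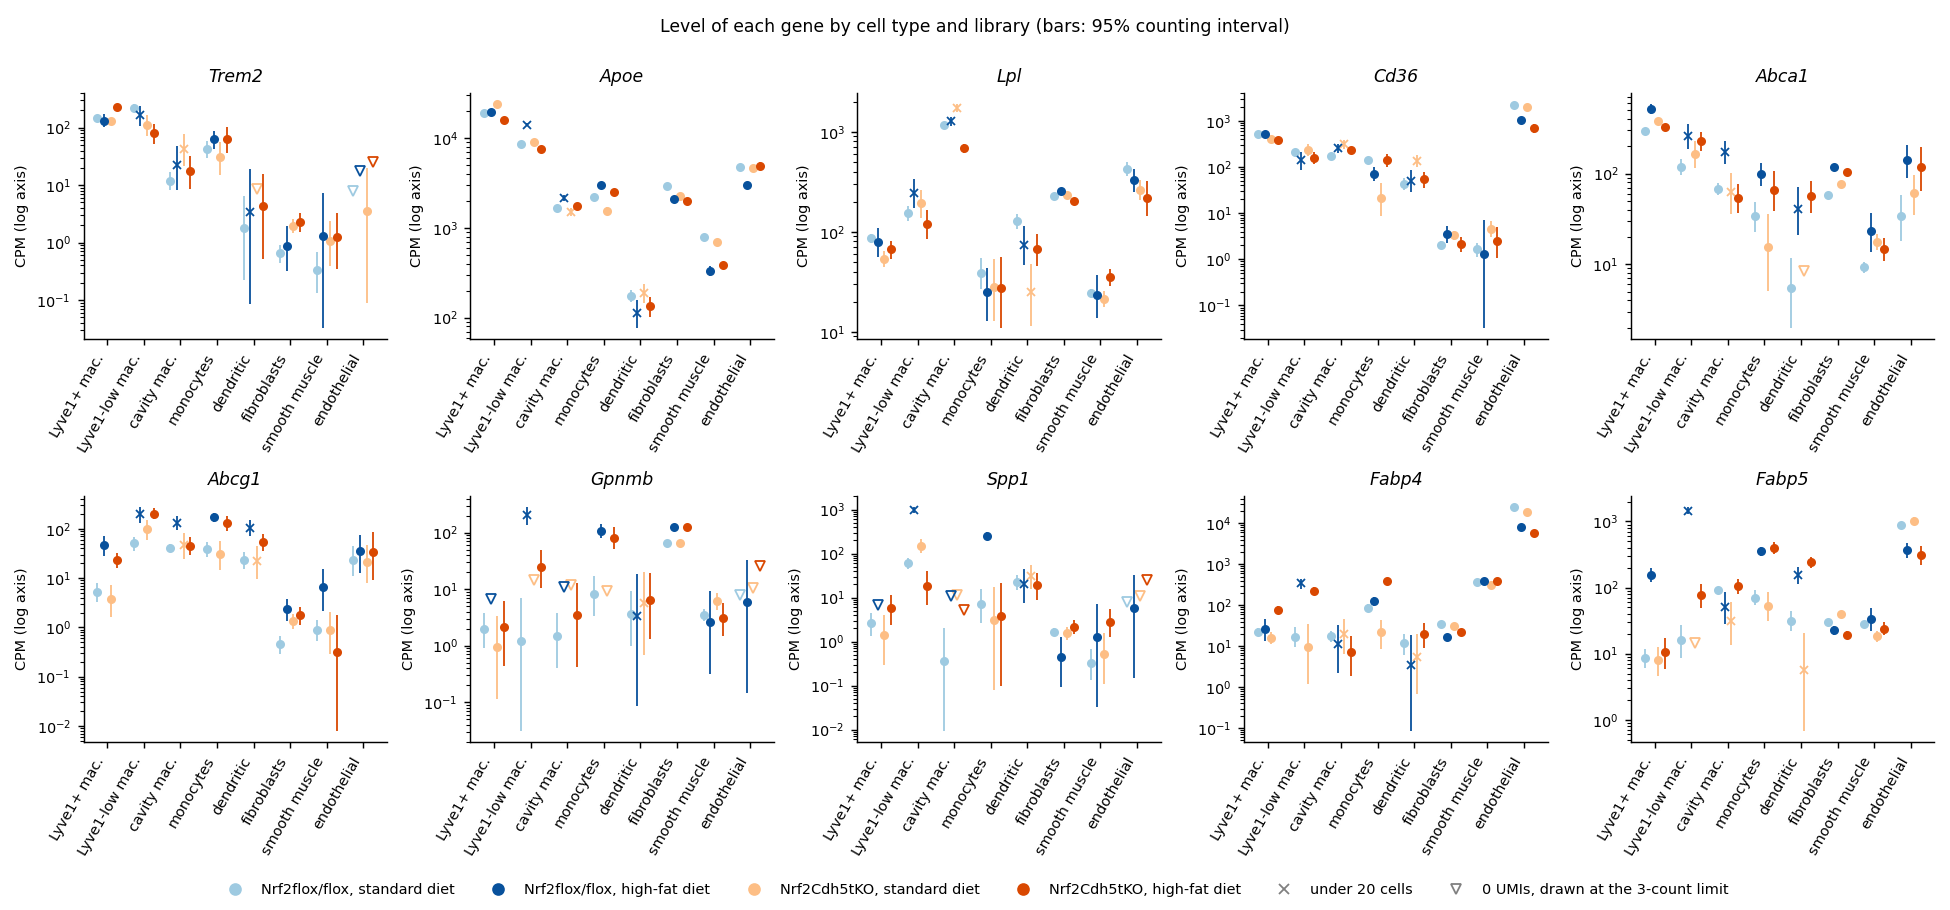
Level of each of the 10 genes in CPM (log axis) by cell type, with 1 point for each library and bars for the 95% counting interval; crosses are cell types with under 20 cells in that library, and open triangles are counts of 0 drawn at the 3-count limit. Fabp4 and Cd36 stood highest in endothelial cells, Trem2 and Apoe in macrophages, and Gpnmb lay at 64.6 to 126 in fibroblasts of all 4 libraries.

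Cd36, the fatty acid and scavenger receptor, was highest in endothelial cells (685 to 2166 CPM), with Lyve1+ macrophages next at 387 to 524. Fabp4 was an endothelial transcript at 5875 to 24605 CPM, against 311 to 399 in smooth muscle cells and 15.8 to 80.6 in macrophages. Fabp5 was also high in endothelium (313 to 1035), and in monocytes of the high-fat diet libraries it reached 353 and 401, within that range. It stood above that range, at 1461, in the 15 Lyve1-low macrophages of the Nrf2flox/flox high-fat diet library. Single cells held 123 and 96 of the 232 UMIs there. Abca1 was highest in Lyve1+ macrophages (295 to 516). Abcg1 was highest in Lyve1-low macrophages (50.4 to 204), whose range overlapped those of monocytes (31.0 to 172) and cavity macrophages (40.4 to 132). T cells held 46.5 to 65.6 CPM of Abcg1, above the monocytes in both standard diet libraries. Gpnmb, which is best known from foam cells, was in the standard diet libraries a fibroblast transcript: 64.6 and 65.8 CPM in fibroblasts against 1.73 and 0.770 in macrophages. Spp1, the secreted phosphoprotein osteopontin, was at or under 13.1 CPM in macrophages of 3 libraries and at 0.444 to 2.20 in fibroblasts.

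The cholesterol exporter Abcg1 was higher in macrophages on the high-fat diet under both genotype labels. All macrophages pooled held 174 Abcg1 UMIs on the standard diet and 88 on the high-fat diet in Nrf2flox/flox, or 21.5 and 99.5 CPM, and 40 and 125 UMIs in Nrf2Cdh5tKO, or 15.4 and 54.2 CPM. Both high-fat diet libraries lay above both standard diet libraries. The ratio was 4.64-fold in Nrf2flox/flox (log2 2.21, interval 1.83 to 2.59) and 3.52-fold in Nrf2Cdh5tKO (log2 1.82, interval 1.29 to 2.37). Leaving out the cell with the most Abcg1 UMIs in each library gave 2.16 and 1.89, so the ratio did not rest on 1 cell. With cells thinned to equal depth, 3.73 and 2.75% of standard diet macrophages and 13.1 and 8.02% of high-fat diet macrophages held an Abcg1 UMI (Nrf2flox/flox, then Nrf2Cdh5tKO), against 16.3, 7.46, 31.0 and 24.7% unthinned. Fibroblasts, which should hold little Abcg1, gave 0 to 0.370%.

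Abcg1 was also counted within each macrophage kind. Lyve1+ macrophages, the resident kind of the outer vessel wall, went from 5.22 to 46.3 CPM of Abcg1 in Nrf2flox/flox (24 and 21 UMIs, log2 3.15, interval 2.23 to 4.06) and from 3.75 to 23.4 in Nrf2Cdh5tKO (8 and 33 UMIs, log2 2.64, interval 1.5 to 3.97). These are few counts in a kind with little Abcg1, and leaving out the top cell gave 2.65 and 2.60. Lyve1-low macrophages of Nrf2Cdh5tKO (20 and 31 cells) went from 96.9 to 204 (log2 1.07, interval 0.33 to 1.87). In Nrf2flox/flox this kind had 15 cells on the high-fat diet, with 31 Abcg1 UMIs in 8 of them. Cavity macrophages were few in 1 library of each label, and there Abcg1 stood at 40.4 and 132 CPM in Nrf2flox/flox (149 and 11 cells) and at 46.8 and 45.6 in Nrf2Cdh5tKO (14 and 27 cells, 12 and 26 UMIs), with no higher level on the high-fat diet in the latter. Lyve1+ cells made up 67.3 and 70.1% of macrophages in Nrf2flox/flox (standard, then high-fat diet) and 88.5 and 75.7% in Nrf2Cdh5tKO. Lyve1-low cells, the macrophage kind highest in Abcg1, made up 10.7 and 17.2% in Nrf2flox/flox and 6.78 and 12.97% in Nrf2Cdh5tKO. They held 41 of 174 and 31 of 88 Abcg1 UMIs in Nrf2flox/flox, and 20 of 40 and 66 of 125 in Nrf2Cdh5tKO. The part of the macrophage makeup in the pooled Abcg1 ratios was not tested. Of the 957 Lyve1+ cells, 45 held only the minimum number of markers asked for.

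Abca1, the exporter that loads cholesterol onto lipid-poor apolipoproteins, differed in sign between the genotype labels. In all macrophages it went from 202 to 364 CPM in Nrf2flox/flox (log2 0.85, interval 0.68 to 1.03), past the 1.5-fold used here, and from 330 to 244 in Nrf2Cdh5tKO (log2 -0.44, interval -0.59 to -0.28), which did not pass it. The high-fat diet levels lay on either side of the Nrf2Cdh5tKO standard diet level, and the standard diet Nrf2flox/flox library was the lowest of the 4. In Lyve1+ macrophages the values were 295 and 516 (log2 0.81, not past the fold with size factors, 0.52, or TMM, 0.46) and 379 and 324 (log2 -0.23). Thinned to equal depth, 41.4% of Lyve1+ macrophages held an Abca1 UMI in the standard diet Nrf2flox/flox library and 63.3% in its high-fat diet library (82.6 and 86.9% unthinned), while Nrf2Cdh5tKO gave 54.5 and 53.9% (82.4 and 82.9% unthinned). T cells, which should hold little, gave 1.44 to 7.14%.

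Apoe, the most counted member in macrophages, also differed in sign between the labels, but its sign in Nrf2flox/flox depended on the scaling. In all macrophages it stood at 12063 and 13073 CPM in Nrf2flox/flox (log2 0.12, interval 0.09 to 0.14) and at 20375 and 11103 in Nrf2Cdh5tKO (log2 -0.88, interval -0.90 to -0.85). The standard diet Nrf2Cdh5tKO library stood above the other 3, which lay close together. It was also the library with the highest share of Lyve1+ cells, the kind richest in Apoe. Within Lyve1+ cells alone Apoe went from 23736 to 15695 (log2 -0.60, interval -0.62 to -0.57) in Nrf2Cdh5tKO and from 18776 to 19284 (log2 0.04, interval 0.01 to 0.07) in Nrf2flox/flox. The Nrf2Cdh5tKO ratio in Lyve1+ cells was under the fold in 4 of 12 alternatives (-0.57 to -0.50, among them size factors and TMM), and the part of the macrophage makeup was not tested. The same library held atrial muscle markers (4 of 4 detected, summing to 419 CPM in macrophages against 0 to 3.21 in the others), and their part in the Apoe difference was not tested.

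Trem2, Cd36 and Lpl showed little difference by diet in macrophages as a whole. Trem2 stood at 110 and 104 CPM in Nrf2flox/flox (log2 -0.08, interval -0.41 to 0.23) and at 122 and 158 in Nrf2Cdh5tKO (log2 0.37, interval 0.15 to 0.59). In Lyve1+ macrophages of Nrf2Cdh5tKO it went from 133 to 232 (log2 0.80, interval 0.57 to 1.04), past the fold, against 148 and 132 in Nrf2flox/flox (log2 -0.17, interval -0.57 to 0.22). Cd36 gave log2 ratios of -0.05 (interval -0.23 to 0.11) and -0.25 (interval -0.39 to -0.11) in all macrophages. Lpl gave 0.08 (interval -0.07 to 0.22) and -0.02 (interval -0.19 to 0.16), although 1 cell in each Nrf2flox/flox library held 150 and 155 of its UMIs and without these cells the ratio was -0.50.

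The fatty acid binding proteins were higher on the high-fat diet in all macrophages pooled under both labels, but in few cells. Fabp5 went from 36.5 to 357 CPM in Nrf2flox/flox (log2 3.29, interval 3.06 to 3.53) and from 9.62 to 43.4 in Nrf2Cdh5tKO (log2 2.17, interval 1.53 to 2.87), and leaving out the top cell of each library gave 3.05 and 2.17. In the Nrf2flox/flox high-fat diet library 316 Fabp5 UMIs lay in 18 of 87 macrophages, with 123, 96 and 64 in 1 cell each. Leaving out 1 cell there thus keeps most of the UMIs of the other 2, and that ratio rested largely on these cells. In cavity macrophages Fabp5 went from 90.4 to 51.5 CPM in Nrf2flox/flox (149 and 11 cells). It went from 31.2 to 105 in Nrf2Cdh5tKO (14 and 27 cells). Fabp4 went from 20.5 to 78.0 (log2 1.93, interval 1.5 to 2.34) and from 15.8 to 80.6 (log2 2.35, interval 1.86 to 2.88), and its log2 ratios without the top cells were 0.75 and 1.52. On the high-fat diet in Nrf2flox/flox 1 macrophage held 41 Fabp4 UMIs and another 12. Lyve1-low macrophages were few (72 and 15 cells in Nrf2flox/flox, 20 and 31 in Nrf2Cdh5tKO) but held many of these UMIs. Fabp5 there counted 13 and 232 UMIs in Nrf2flox/flox and 0 and 25 in Nrf2Cdh5tKO. For Fabp4 the counts in this kind were 14 and 54, and 2 and 72. Lyve1+ macrophages showed how much a single cell can weigh. There, 64 of 70 Fabp5 UMIs in Nrf2flox/flox and 90 of 110 Fabp4 UMIs in Nrf2Cdh5tKO came from 1 high-fat diet cell each, and the log2 ratios of 4.19 and 2.29 became 0.94 and -0.02 without the top cells. Without the cells called doublets by Scrublet, that Fabp4 ratio was -0.13. Fabp5 in Nrf2Cdh5tKO (log2 0.42) and Fabp4 in Nrf2flox/flox (log2 0.21) were not past the fold in Lyve1+ macrophages. Adipocyte markers, whose cells also make Fabp4, summed to 0 to 5.43 CPM in macrophages, with Plin1, Lep and the rest of the 5 at 0 in the Nrf2flox/flox high-fat diet library. Endothelial cells held the most Fabp4, and the part of endothelial RNA in the macrophage counts was not tested.

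**Figure D2:**
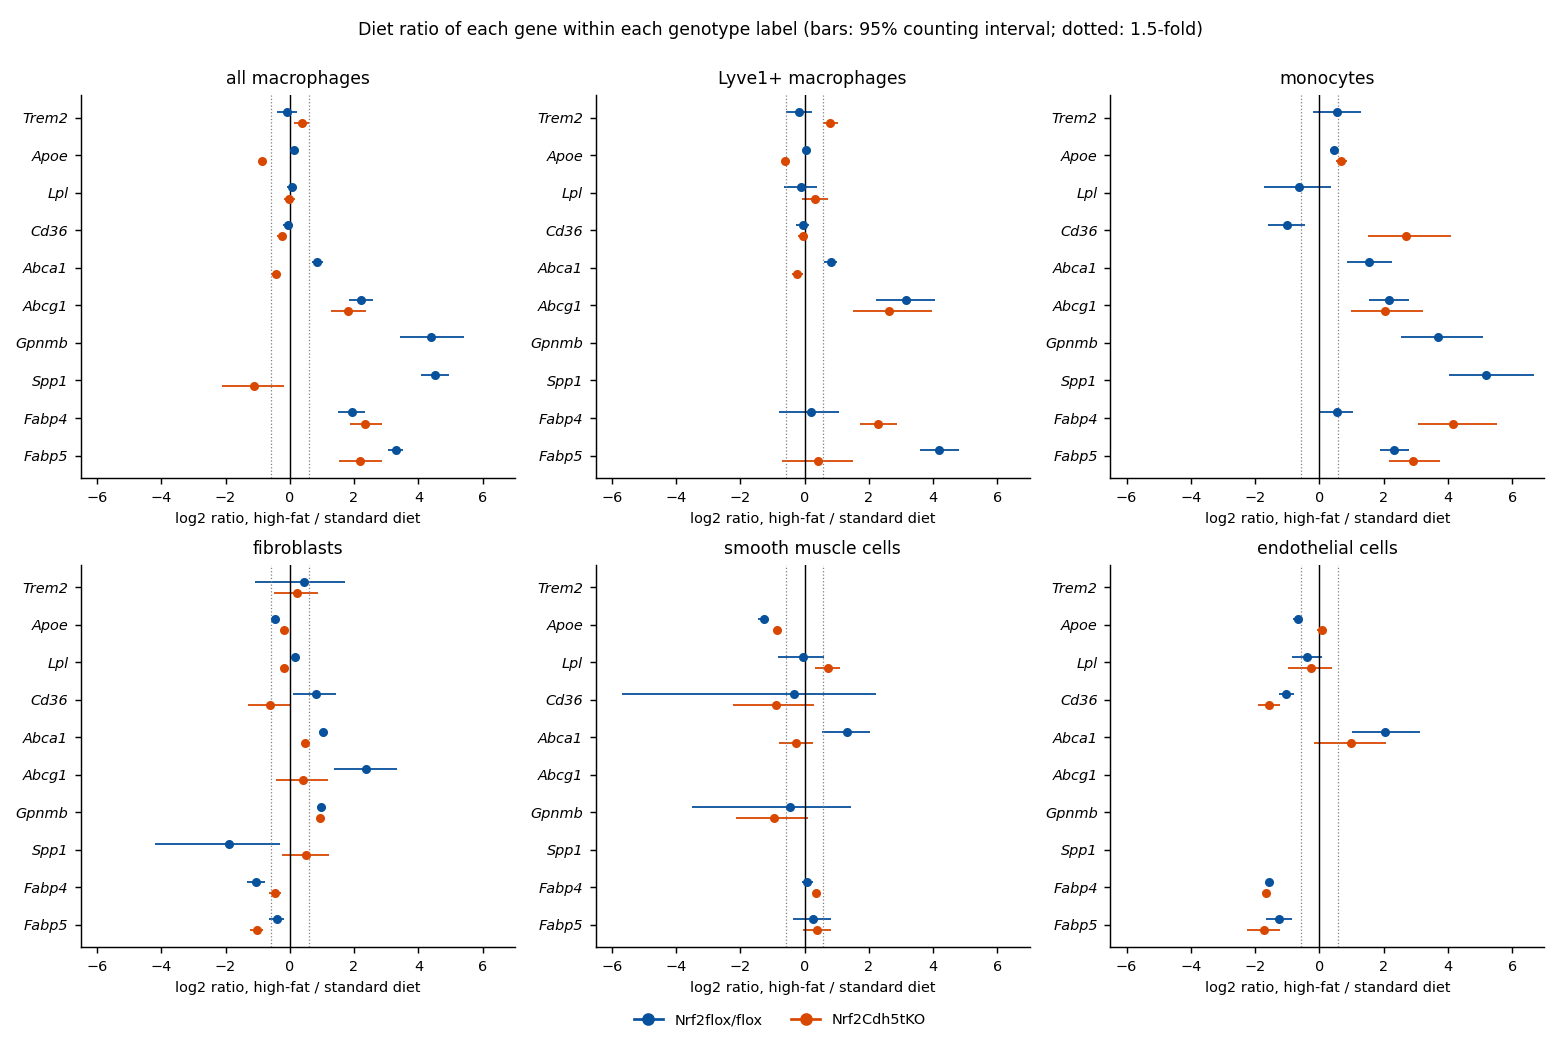
Log2 ratio of high-fat to standard diet for each gene in 6 cell types, with 1 point per genotype label, bars for the 95% counting interval and dotted lines at 1.5-fold. Abcg1 lay to the right of 0 under both labels in macrophages and monocytes (1.82 to 3.15), and Fabp4, Fabp5 and Cd36 to the left of 0 in endothelial cells (-1.73 to -1.02).

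Counted over the members with at least 30 UMIs over both libraries, 6 of 10 were at least 1.5-fold higher and 0 lower in all macrophages of Nrf2flox/flox, where 34.3% of the 9715 genes tested passed that fold in either direction. In Nrf2Cdh5tKO 3 of 9 were higher (Abcg1, Fabp4, Fabp5) and 2 lower (Apoe, Spp1), against 19.1% of 8850 genes. Gpnmb was the member that missed the minimum there. In Lyve1+ macrophages 3 of 8 were higher and 0 lower in Nrf2flox/flox against a background of 43.8%, a share no larger than that of all genes, and 3 of 8 were higher and 1 lower in Nrf2Cdh5tKO against 17.1%. The median log2 ratio of all tested genes was 0.17 and -0.12 in all macrophages (Nrf2flox/flox, then Nrf2Cdh5tKO).

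Gpnmb and Spp1, which mark lipid-laden macrophages in lesions, lay in few macrophages. In all macrophages of Nrf2flox/flox Gpnmb counted 14 UMIs in 14 cells on the standard diet and 32 UMIs in 3 cells on the high-fat diet, and in Nrf2Cdh5tKO 2 UMIs in 2 cells and 13 UMIs in 9 cells. Spp1 counted 63 and 156 UMIs in Nrf2flox/flox, where 153 of the 156 came from 1 cell, and 34 and 14 in Nrf2Cdh5tKO. The Spp1 log2 ratios were 4.51 and -1.11, and without the top cell of each library they were -0.66 (interval -2.99 to 0.98) and -0.41 (interval -1.60 to 0.72), so no direction can be read from Spp1 in macrophages.

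**Figure D3:**
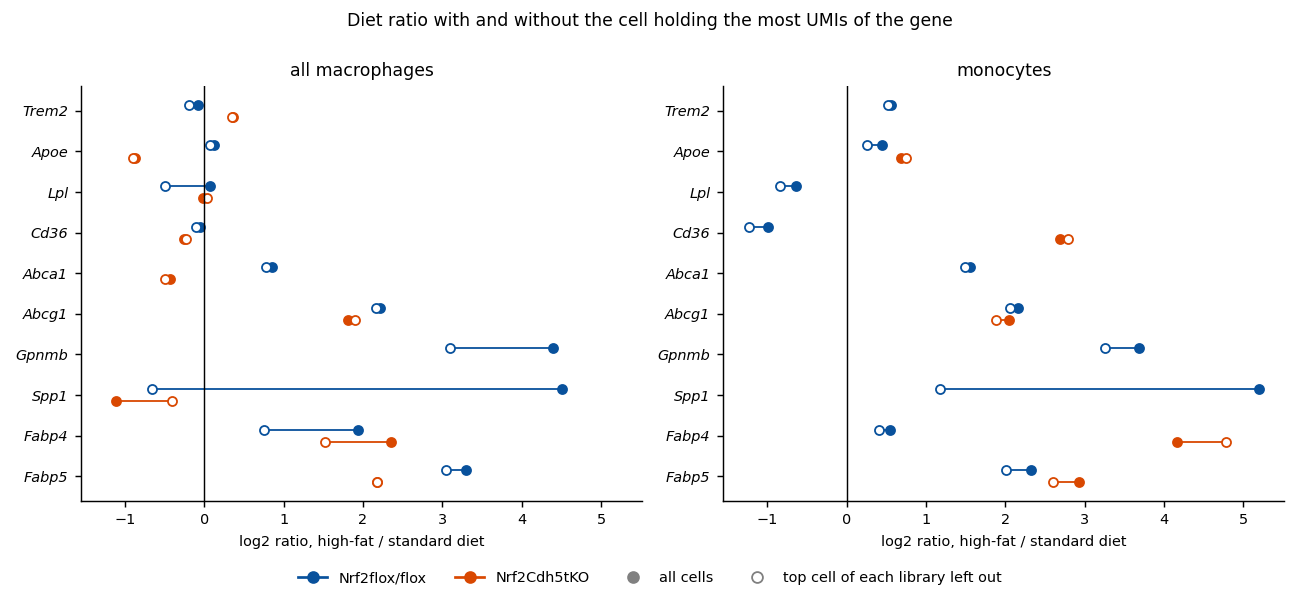
Log2 ratio of high-fat to standard diet for each gene, from all cells (filled points) and with the cell holding the most UMIs of that gene left out of each library (open points), by genotype label. Lines join the filled and open point of a gene and are not intervals. Abcg1 in all macrophages moved from 2.21 to 2.16 and from 1.82 to 1.89, whereas Spp1 in Nrf2flox/flox moved from 4.51 to -0.66.

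Among all leukocytes, cells with 3 or more Gpnmb UMIs were found in the high-fat diet libraries alone. None was found among 1450 and 673 leukocytes of the standard diet Nrf2flox/flox and Nrf2Cdh5tKO libraries, which allows shares of up to 0.207 and 0.446% by the limit of 3 counts. The high-fat diet libraries held 8 of 356 (2.25%, Clopper-Pearson interval 0.975 to 4.38%) and 7 of 424 (1.65%, interval 0.666 to 3.37%), at median depths of 7436 and 7634 UMIs per leukocyte against 9333 and 7523 on the standard diet. The cutoff of 3 UMIs was chosen after the values were seen. At 1 or more Gpnmb UMIs, the standard diet libraries had 31 and 7 such leukocytes and the high-fat diet libraries 11 and 23.

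These 15 cells did not sit in 1 gate. By marker gate 4 were Lyve1-low macrophages, 6 monocytes and 5 other myeloid cells, and none was a Lyve1+ or cavity macrophage. Fabp5 UMIs were present in 8 of the 8 Nrf2flox/flox cells and in 6 of the 7 Nrf2Cdh5tKO cells, Abcg1 UMIs in 8 and 3, Trem2 UMIs in 5 and 2, and Spp1 UMIs in 4 and 3. The complement gene C1qa, a macrophage marker, had a UMI in 2 and 4. Of the 15 cells, 3 held 153, 119 and 105 Spp1 UMIs, with 20, 25 and 4 Gpnmb UMIs. The highest Gpnmb count, 25 UMIs, was in a monocyte of Nrf2flox/flox with 16 Fabp5 and 1 Trem2 UMIs.

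Monocytes are the blood cells from which recruited macrophages arise, and cells of the monocyte gate differed in the same direction for Abcg1 and Fabp5. These are cells with at least 4 monocyte markers that the macrophage gate left out, but from the same pooled libraries. They held 1545 to 3024 CPM of Apoe and 31.0 to 62.3 of Trem2, against 207 to 281 and 0.550 to 17.8 in T cells. Whether some of them are macrophages low in the markers asked for was not tested. Abcg1 went from 38.6 to 172 CPM in Nrf2flox/flox (33 and 83 UMIs, log2 2.16, interval 1.56 to 2.78) and from 31.0 to 129 in Nrf2Cdh5tKO (10 and 33 UMIs, log2 2.05, interval 1.0 to 3.24). Fabp5 went from 70.3 to 353 (log2 2.33, interval 1.90 to 2.78) and from 52.7 to 401 (log2 2.93, interval 2.18 to 3.76). Much of Fabp5 on the high-fat diet lay in few monocytes. Single cells held 59 and 33 of its 170 UMIs in Nrf2flox/flox and 40 of its 103 in Nrf2Cdh5tKO. Without the top cells its log2 ratios were 2.01 and 2.60. In both genes the 2 high-fat diet libraries lay above the 2 standard diet libraries. Dendritic cells were few (64 and 17 cells in Nrf2flox/flox, 17 and 23 in Nrf2Cdh5tKO). There Abcg1 went from 23.5 to 105 CPM and from 22.4 to 54.0, and Fabp5 from 31.7 to 153 and from 5.60 to 240. In T cells Abcg1 was not past the fold (log2 0.50 and -0.27), and Fabp5 gave -0.67 and -0.50. The thinned share of monocytes with an Abcg1 UMI was 12.7 and 4.35% on the standard diet and 25.6 and 29.6% on the high-fat diet (31.6, 43.5, 71.8 and 46.4% unthinned), while for Fabp5 it was 11.4 and 13% and then 15.4 and 18.5%, a smaller difference than in its level.

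Other members differed in monocytes with few counts behind them. Abca1 went from 34.0 to 99.6 in Nrf2flox/flox (log2 1.55, interval 0.86 to 2.27) and from 5 to 17 UMIs in Nrf2Cdh5tKO. Gpnmb went from 7 to 51 UMIs in Nrf2flox/flox (log2 3.69, interval 2.54 to 5.08) and from 0 to 21 UMIs in Nrf2Cdh5tKO, where the log2 ratio against 3 counts was at least 3.14. Both genes thus had few UMIs in standard diet monocytes. On the high-fat diet Gpnmb also lay in few cells, all among the 15 cells described above. In Nrf2flox/flox 4 monocytes held 25, 15, 7 and 3 of its UMIs, and in Nrf2Cdh5tKO 2 held 14 and 7. The Gpnmb ratios thus rest on these cells, and their intervals do not cover the spread between cells. Cd36, which takes up fatty acids and oxidised lipoproteins, moved in opposite directions, from 141 to 70.6 CPM (log2 -0.99, interval -1.59 to -0.43) in Nrf2flox/flox and from 21.7 to 140 (7 and 36 UMIs, log2 2.69, interval 1.5 to 4.10) in Nrf2Cdh5tKO, where the standard diet library stood apart from the other 3. Fabp4 stood at 85.5 and 125 in Nrf2flox/flox (log2 0.54) and went from 21.7 to 389 in Nrf2Cdh5tKO (7 and 100 UMIs, log2 4.16). Spp1 in Nrf2flox/flox monocytes rested on 1 cell with 119 of 124 UMIs, and its log2 ratio of 5.19 became 1.18 (interval -1.04 to 3.51) without it.

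In counts, 5 of 10 members were higher and 2 lower in Nrf2flox/flox monocytes, where 27.9% of genes passed the fold. In Nrf2Cdh5tKO 5 of the 5 with enough UMIs were higher, where 30.2% passed. Trem2, Lpl, Abca1, Gpnmb and Spp1 missed the minimum of 30 UMIs there. Cd36, Abcg1, Fabp4 and Fabp5 had 7, 10, 7 and 17 UMIs on the standard diet and met it through the high-fat diet library. The 5 of 5 was thus largely set by that minimum and is not read as a result. The monocyte gate held 79, 23, 39 and 28 cells (standard diet Nrf2flox/flox and Nrf2Cdh5tKO, then high-fat diet), 40 of the 169 at the minimum number of markers. Neutrophil markers, of which S100a8 and S100a9 are also made by monocytes, were detected in full in 3 libraries and 4 of 5 in the other, and summed to 12145, 28018, 30059 and 12975 CPM in that order; their part in these differences was not tested.

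Gpnmb was higher on the high-fat diet in fibroblasts by nearly the same amount under both labels. Fibroblasts were the cell type with the most cells, at 4397, 1610, 470 and 1169 cells in the same order. Gpnmb, a membrane glycoprotein, counted 3388 and 847 UMIs in Nrf2flox/flox and 1745 and 1663 in Nrf2Cdh5tKO. This was 64.6 and 125 CPM (1.94-fold, log2 0.96, interval 0.85 to 1.07) and 65.8 and 126 (1.92-fold, log2 0.94, interval 0.84 to 1.04). The standard diet libraries nearly coincided, as did the high-fat diet libraries. Thinned to equal depth, 11 and 11.3% of standard diet fibroblasts and 18.6 and 18.1% of high-fat diet fibroblasts held a Gpnmb UMI (33.5, 44.8, 55.7 and 48.2% unthinned), against 0 to 0.375% of T cells. Macrophage markers, of which all 10 were detected in each library, summed to 75.1, 116, 114 and 179 CPM in fibroblasts. Gpnmb in all macrophages pooled stood at 0.770 to 36.2 CPM, below its level in the fibroblasts of each library. Small groups on the high-fat diet stood above the fibroblasts of their library. These were Lyve1-low macrophages of Nrf2flox/flox (201 CPM, 32 UMIs, 15 cells) and other myeloid cells of Nrf2Cdh5tKO (168 CPM, 30 UMIs, 18 cells).

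**Figure D4:**
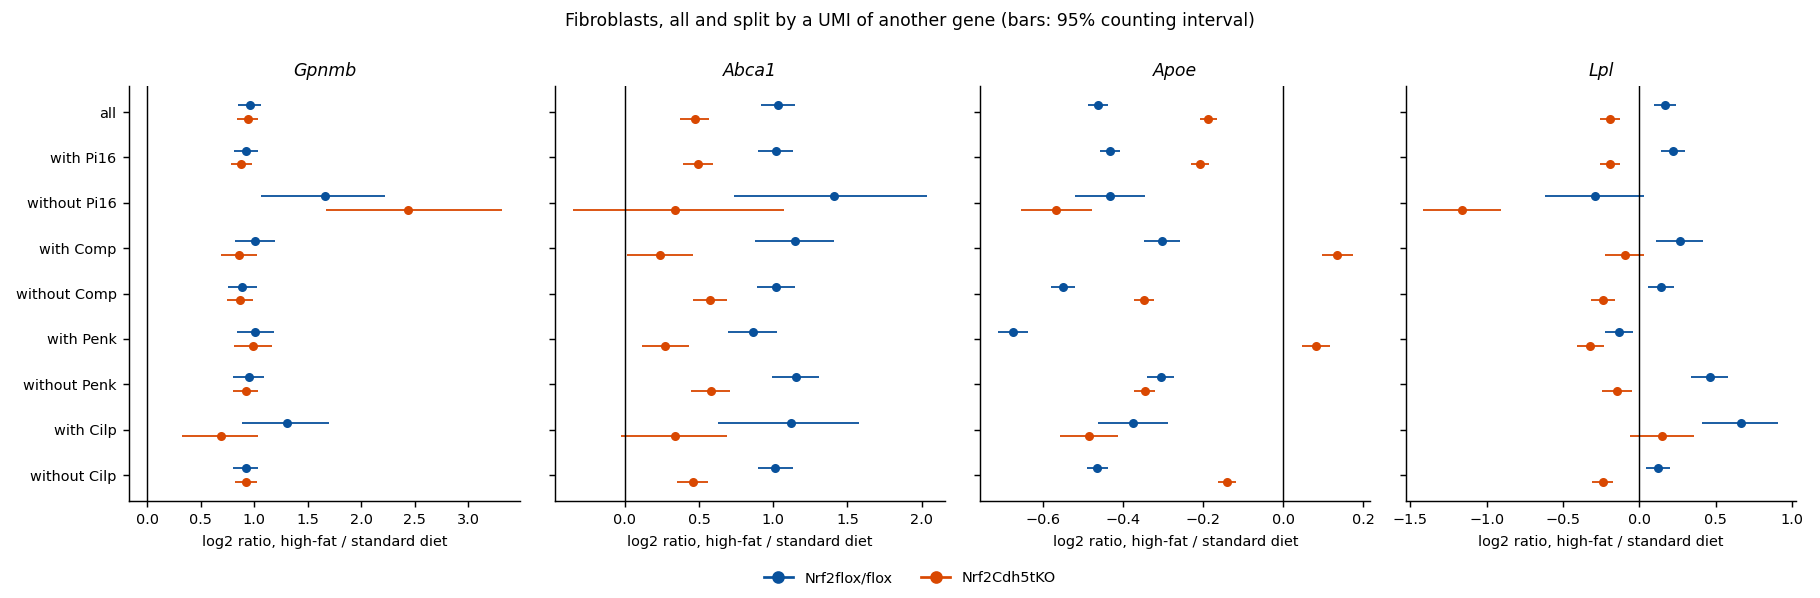
Log2 ratio of high-fat to standard diet in fibroblasts, for all cells and for cells with or without a UMI of another fibroblast gene, by genotype label, with bars for the 95% counting interval. Gpnmb lay at 0.96 and 0.94 in all cells and between 0.86 and 1.01 with or without Comp and Penk.

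The fibroblasts were split by whether they held a UMI of another gene, with genes chosen after the values were seen, and these groups overlap and are not kinds of fibroblast. In fibroblasts with a Pi16 UMI, a gene of adventitial fibroblasts, which were 4052 of 4397 and 1571 of 1610 on the standard diet, the log2 ratios were 0.93 and 0.88, and in those without one they were 1.66 (345 and 31 cells) and 2.44 (39 and 113 cells). With a UMI of Comp, a matrix protein gene, Gpnmb stood at 97.8 and 94.9 CPM on the standard diet and at 197 and 172 on the high-fat diet, and without one at 55.9 and 58.3 and then 104 and 106. With Cilp the ratios were 1.30 and 0.69 and without it 0.92 and 0.92. Cells with a Tfap2b UMI were few on the high-fat diet (4 and 9 cells), and there the ratios were 3.86 and -0.0025.

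Abca1 was also higher in high-fat diet fibroblasts, past the fold under 1 label. It went from 58.0 to 119 CPM in Nrf2flox/flox (log2 1.03, interval 0.92 to 1.15) and from 75.8 to 105 in Nrf2Cdh5tKO (log2 0.47, interval 0.37 to 0.57), so the 2 high-fat diet libraries again lay above the 2 standard diet libraries. Thinned to equal depth, 9.79 and 12.6% of standard diet and 15.3 and 17.8% of high-fat diet fibroblasts held an Abca1 UMI (38.8, 55.4, 65.1 and 53.8% unthinned). Apoe stood at 2897 and 2102 (log2 -0.46) and at 2268 and 1992 (log2 -0.19), and Lpl at 226 and 254 (log2 0.17) and at 232 and 202 (log2 -0.19), none past the fold. Fabp4 gave -1.04 and -0.46 and Fabp5 -0.41 and -1.03, each past the fold under 1 label. The 4 remaining members were at or under 3.55 CPM in fibroblasts. In all, 4 of 10 members were higher (Cd36, Abca1, Abcg1, Gpnmb) and 2 lower (Spp1, Fabp4) in Nrf2flox/flox against 20.7% of all genes. Of these, Cd36, Abcg1 and Spp1 are among the members at or under 3.55 CPM. With free RNA subtracted 2 were higher and 3 lower there, against 21.5%. In Nrf2Cdh5tKO 1 was higher (Gpnmb) and 2 lower (Cd36, Fabp5) against 13.5%.

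In smooth muscle cells the main difference was in Apoe, which these cells secrete. Apoe went from 796 to 330 CPM in Nrf2flox/flox (16957 and 255 UMIs, 2.41-fold lower, log2 -1.27, interval -1.46 to -1.09) and from 691 to 383 in Nrf2Cdh5tKO (3878 and 1216 UMIs, 1.80-fold lower, log2 -0.85, interval -0.95 to -0.76). The 2 standard diet libraries lay above the 2 high-fat diet libraries. The thinned share of smooth muscle cells with an Apoe UMI was 59.1 and 61.1% on the standard diet and 35.9 and 48.4% on the high-fat diet (95.3, 97.7, 78.8 and 83.7% unthinned). T cells, which should not make Apoe, gave 30.2 and 40.8% and then 27.9 and 34.3%, which is the background of free RNA for these shares. Fibroblast markers, all 7 detected, summed to 2556 and 3158 CPM in standard diet smooth muscle cells and to 2075 and 1869 in high-fat diet ones, and fibroblasts hold more Apoe than these cells; the part of this in the Apoe difference was not tested. Subtracting free RNA gave -2.61 and -0.98, and keeping cells that met 2 lineage gates gave -0.26 in Nrf2Cdh5tKO.

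Fabp4 in smooth muscle cells stood at 367 and 389 CPM (log2 0.09) and at 311 and 399 (log2 0.36), neither past the fold. Abca1 gave 1.33 (18 high-fat diet UMIs) and -0.25, and Lpl -0.06 and 0.72. In Nrf2flox/flox 1 of 7 members was higher and 1 lower against 33.5% of all genes, and in Nrf2Cdh5tKO 1 was higher and 3 lower against 13.6%, where Cd36 and Gpnmb rested on 34 and 44 UMIs in total.

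Endothelial cells held the highest Fabp4 and Cd36 levels among the cell types compared, and both genes, with Fabp5, were lower there on the high-fat diet. Fabp4 went from 24605 to 8276 CPM in Nrf2flox/flox (2.97-fold lower, log2 -1.57, interval -1.65 to -1.49) and from 18714 to 5875 in Nrf2Cdh5tKO (3.19-fold lower, log2 -1.67, interval -1.79 to -1.56). Cd36 went from 2166 to 1065 (log2 -1.02, interval -1.26 to -0.79) and from 2034 to 685 (log2 -1.57, interval -1.92 to -1.23), and Fabp5 from 881 to 369 (log2 -1.26, interval -1.67 to -0.86) and from 1035 to 313 (log2 -1.73, interval -2.26 to -1.23). For each of the 3 genes both high-fat diet libraries lay below both standard diet libraries. In Nrf2flox/flox the Cd36 ratio was no longer past the fold as a mean over cells (-0.07) or thinned to equal depth (-0.28), and the Fabp5 ratio was not past it when thinned (-0.48). The type was small: 75 and 46 cells on the standard diet and 28 and 20 on the high-fat diet, 8 of the 169 at the minimum number of markers.

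Endothelial cells are of several kinds, and capillary cells are known to hold much Fabp4 and Cd36. Gpihbp1, the capillary protein that holds lipoprotein lipase on the vessel surface, was detected in 51 of 75 and 27 of 46 cells on the standard diet (68.0 and 58.7%) and in 15 of 28 and 5 of 20 on the high-fat diet (53.6 and 25.0%), and 65.6, 58.1, 52.2 and 21.1% after thinning. The Clopper-Pearson intervals were 56.2 to 78.3% and 33.9 to 72.5% in Nrf2flox/flox and 43.2 to 73.0% and 8.66 to 49.1% in Nrf2Cdh5tKO. They overlapped between diets under both labels, which does not show that the shares were alike. Within cells that held a Gpihbp1 UMI, Fabp4 stood at 40712 and 28349 CPM in Nrf2flox/flox (log2 -0.52, interval -0.60 to -0.44) and at 32321 and 38674 in Nrf2Cdh5tKO (log2 0.26, interval 0.14 to 0.38). Cd36 in those cells gave -0.07 (interval -0.32 to 0.17) and 0.18 (interval -0.20 to 0.55). In cells with no Gpihbp1 UMI, Fabp4 stood at 251 and 294 and at 1125 and 434. The log2 ratios without it were 0.23 and -1.38. Apoe was lower on the high-fat diet both in cells with Gpihbp1 (log2 -0.68 and -1.30) and in cells without it (-1.35 and -0.53), where its level was higher (3810 to 9680 CPM against 832 to 2049). The value of -1.30 rested on 14 high-fat diet UMIs in 5 cells, and over all Nrf2Cdh5tKO endothelial cells Apoe gave 0.07. Lpl was higher on the high-fat diet in cells with Gpihbp1 (0.70 and 1.81). Fabp5 gave -0.45 and -0.09 in cells with Gpihbp1 and -0.13 and -2.36 in cells without it, the last from 1060 to 207 CPM on 130 and 21 UMIs. This split was made after the values were seen, and it is not independent of the diet, since Gpihbp1 itself went from 1553 to 731 CPM and from 1394 to 499. The part of the makeup of the endothelial cells in these differences was not tested.

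**Figure D5:**
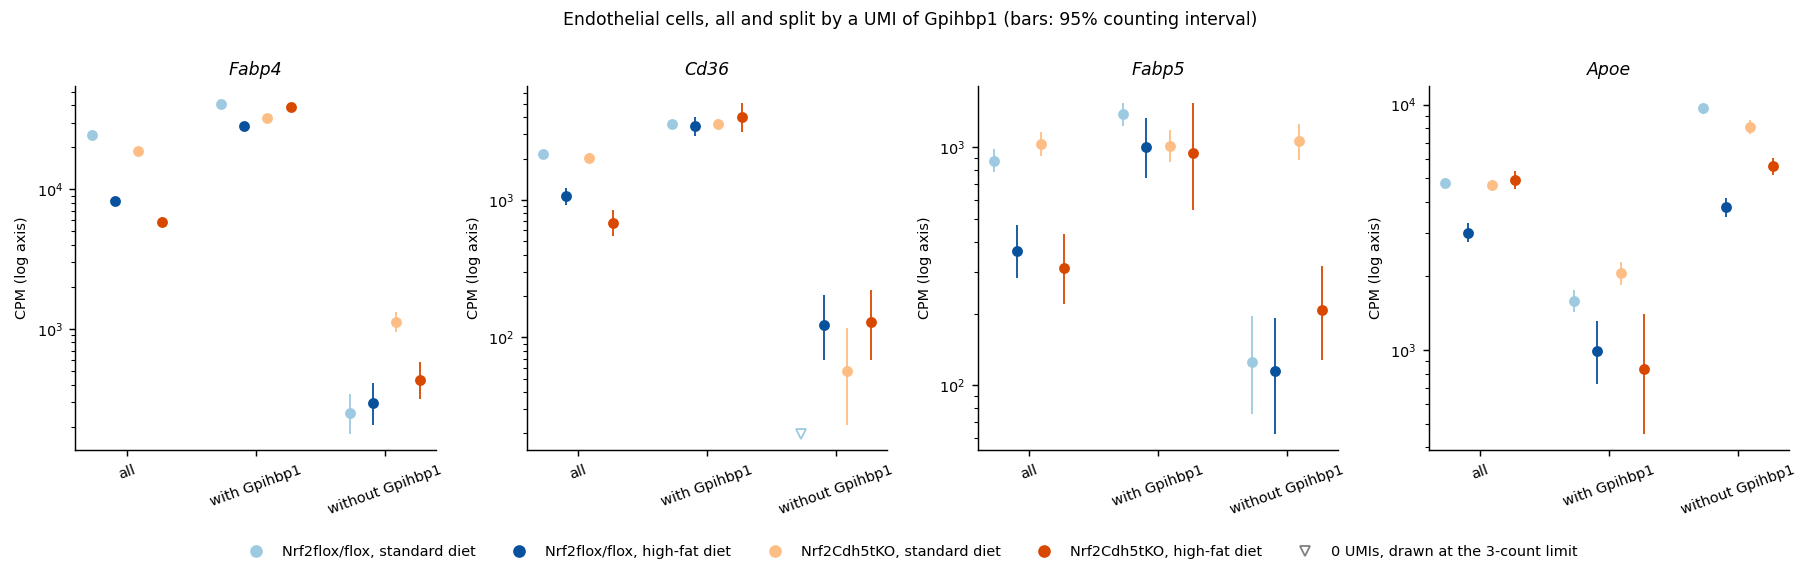
Levels of Fabp4, Cd36, Fabp5 and Apoe in endothelial cells in CPM (log axis), over all cells and over cells with or without a Gpihbp1 UMI, with 1 point per library and bars for the 95% counting interval. Fabp4 in cells with Gpihbp1 lay between 28349 and 40712 in all 4 libraries, and in cells without it between 251 and 1125.

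Other endothelial genes moved in the same libraries. Kdr stood at 568 and 814 CPM on the standard diet and at 363 and 228 on the high-fat diet, and Vwf, higher in large-vessel endothelium, at 360 and 327 and then 497 and 668. Adipocyte markers summed to 250, 81.8, 81.9 and 0 CPM (standard diet Nrf2flox/flox and Nrf2Cdh5tKO, then high-fat diet), with 3, 2, 2 and 0 of 5 detected, most of it Car3, while Plin1 and Lep were at 0 in all 4 and Adipoq at 5 UMIs in 1 library and 0 elsewhere. Lymphatic endothelial markers also moved: they summed to 405 and 64.0 CPM in standard diet endothelial cells and to 17.5 and 0 in high-fat diet ones, with 4, 2, 1 and 0 of 4 detected. Prox1 stood at 34.2, 39.1, 0 and 0 CPM, and Ccl21a and Mmrn1 at 205 and 118 in the standard diet Nrf2flox/flox library and at 0 in the others. The part of either marker list in the member differences was not tested.

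Abca1 was the member that was higher in endothelial cells, at 34.2 and 140 CPM in Nrf2flox/flox (13 and 24 UMIs, log2 2.04, interval 1.01 to 3.14) and at 60.4 and 118 in Nrf2Cdh5tKO (17 and 14 UMIs, log2 0.97, interval -0.16 to 2.08). Apoe gave -0.68 and 0.07 and Lpl -0.38 and -0.26. By count 1 of 6 members was higher and 4 lower in Nrf2flox/flox against 38.4% of all genes, and 1 was higher and 3 lower in Nrf2Cdh5tKO against 37.3%. In Nrf2flox/flox Abca1 was also past the fold in all macrophages, the Lyve1+ macrophages among them, and in monocytes, fibroblasts and smooth muscle cells, and in Nrf2Cdh5tKO in endothelial cells alone among those of these types with at least 30 UMIs. It was also higher in T cells, which are not foam cells, at 8.25 and 28.5 CPM (log2 1.79, interval 1.05 to 2.54) and at 8.54 and 32.1 (log2 1.91, interval 0.96 to 2.83). T cells served above as a background for Abca1, and the part of free RNA in these Abca1 differences was not tested.

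Other genes of the same pathways were taken from 4 lists without the members. In all macrophages, 6 of 17 sterol export and liver X receptor genes were higher and 0 lower in Nrf2flox/flox (median log2 0.25, against 0.17 over all genes), close to the 34.3% of all genes past the fold in either direction, and 0 were higher and 2 lower of 16 in Nrf2Cdh5tKO (median -0.13, against -0.12), where that background was 19.1%. Both shares are the background for the next lists too. Of the fatty acid and lipid droplet genes 3 were higher and 2 lower of 14, and 3 were higher and 1 lower of 14. Hilpda, a lipid droplet protein, passed the fold under both labels, from 75.5 to 137 CPM (log2 0.86) and from 30.0 to 62.0 (log2 1.05), as did Pparg on 114 and 54 UMIs in total (log2 0.78 and 0.94). Of the genes that go with Trem2 in lipid-associated macrophages, 2 were higher and 1 lower of 23 in Nrf2flox/flox and 4 higher and 3 lower of 25 in Nrf2Cdh5tKO, none of them past the fold in the same direction under both labels. Partners of Spp1 and Apoe gave 1 higher of 5 and 0 of 5.

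Outside macrophages a few listed genes passed the fold under both labels. Pltp, which moves phospholipid between lipoproteins and is a liver X receptor target, went in fibroblasts from 211 to 349 CPM (log2 0.73, interval 0.66 to 0.79) and from 211 to 373 (log2 0.82, interval 0.76 to 0.88). In fibroblasts Dgat2 and Itga4 were also higher, at or under 3.11 CPM. In monocytes Pltp (log2 1.08 and 1.79) and the droplet coat gene Plin2 (log2 0.60 and 0.85) were higher. In endothelial cells Gpihbp1 (log2 -1.09 and -1.48), Pparg (-0.62 and -1.30) and the high-density lipoprotein receptor Scarb1 (-0.94 and -1.17) were lower and Lgals1 (0.88 and 1.79) and Cd63 (0.67 and 0.60) higher. Cd44, a receptor for Spp1, was lower in smooth muscle cells (-1.32 and -0.99).

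The genes whose levels ran most alike to each member were read from 38 profiles of a cell type in a library, over 11491 genes. These correlations are descriptions, since the profiles share libraries and cell types. Trem2 ran with the macrophage genes Fcgr1 (Pearson r 0.93), Msr1 (0.93) and Adap2 (0.92), and Fabp4 with the endothelial genes Flt1 (0.93), Esam (0.92) and Hrct1 (0.91). Apoe ran with Itm2b (0.87), Slco2b1 (0.87) and Stard9 (0.86), and Abca1 with Slco2b1 (0.84), Man1c1 (0.83) and Etv5 (0.80). Cd36 ran with Ehd4, Cd93 and Dram2 (0.86 to 0.87), Lpl with Acvrl1, Lima1 and Adam15 (0.76 to 0.83), and Gpnmb with Aldh5a1, Pla2g2e and Tsku (0.82 to 0.85). Abcg1 ran with Ucp2, Ptk2b and Btg1 (0.78 to 0.79), Fabp5 with Abcc4, Adipor2 and Scarb1 (0.75 to 0.78), and Spp1 with Itgax, Havcr2 and Ppfia4 (0.69 to 0.73). Between members the values ran from r 0.80 for Apoe and Abca1, through 0.70 for Trem2 and Apoe, to -0.28 for Cd36 and Gpnmb.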

How the data were processed

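Aortic arches of each group were pooled, digested and sorted as DAPI-negative cells, and 10x 3′ v3.1 libraries were made from them. The authors produced the deposited counts (UMI counts per gene and cell, not normalized) with Cell Ranger 6.1.2 on the mm10 (GRCm38) genome. From these counts, cells with 200 to 6000 genes, at most 15% mitochondrial UMIs and at least 1000 UMIs were kept (13616 of 15599 barcodes) and gated by cell type markers, none of them a member. Gate thresholds were set after the marker distributions were seen. The gates left 441 cells out because they met more than 1 lineage gate, 415 because they met none, and 71 as leukocytes of no further type. UMIs were summed per cell type and library, in CPM (UMIs per 1000000). Profiles for the correlations needed at least 20 cells. Ranges of levels also include types under 20 cells in a library. Among these were cavity macrophages, with 11 cells in the Nrf2flox/flox high-fat and 14 in the Nrf2Cdh5tKO standard diet library. Lyve1-low macrophages had 15 in the Nrf2flox/flox high-fat diet library. Ratios carry exact binomial intervals, levels exact Poisson and shares Clopper-Pearson intervals, at 95% and for counting error only. A library with 0 counts was given a limit of 3 counts. "Past the fold" means at least 1.5-fold among genes with at least 30 UMIs over both libraries. With 1 library per condition no test was made.

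All 10 members were named. For each, the 3 genes with the highest Pearson r of log2(CPM + 10), among genes with at least 500 UMIs in all, were named, and from 4 pathway lists the genes past the fold in the same direction under both labels. The members and lists were chosen with earlier results of these data known. Alternatives covered cell filters, Scrublet doublets (357 of 14148 cells called, 2.52%), gates, scaling, subtraction of free RNA and thinning to 2000 UMIs. Those that leave out the top cell or barcodes shared between libraries, and those that split fibroblasts or endothelial cells, were chosen after seeing the data. The count routines were tested on simulated data. Intervals came from scipy 1.17.1, doublet calls from scanpy 1.11.5 and figures from matplotlib 3.10.9, with pandas 2.3.3 and numpy 2.4.6 under Python 3.11.15. Some items are not reported here.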

Additional observations from a re-analysis of the deposited data

Results flagged for a closer look

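Diet ratios were compared between the 2 labels in all macrophages, Lyve1+ macrophages, monocytes, fibroblasts, smooth muscle cells and endothelial cells. In 7 cases they had opposite signs and counting intervals on opposite sides of 0. Pairs of opposite sign with 0 inside an interval were not counted. Among these was Cd36 in fibroblasts, past the fold in opposite directions (log2 0.80 in Nrf2flox/flox and -0.63 in Nrf2Cdh5tKO). With mixed cells kept its Nrf2flox/flox ratio was -0.35. Other cell types were left out of this count. Such pairs occurred there too, as for Apoe in Lyve1-low macrophages (log2 0.70 in Nrf2flox/flox and -0.26 in Nrf2Cdh5tKO). The difference between labels was not tested, since each label had 1 library per diet. In all macrophages (log2, Nrf2flox/flox and then Nrf2Cdh5tKO) Apoe gave 0.12 and -0.88, Abca1 0.85 and -0.44, and Spp1 4.51 and -1.11. In Lyve1+ macrophages Apoe gave 0.04 and -0.60 and Abca1 0.81 and -0.23. Cd36 gave -0.99 and 2.69 in monocytes, and Lpl gave 0.17 and -0.19 in fibroblasts. The Spp1 pair lost its opposite signs when the top cell of each library was left out (-0.66 and -0.41). Size factors and TMM shift every ratio of a pair by the same amount. In Nrf2flox/flox they moved the median of all tested genes from 0.17 to -0.05 and -0.08 in all macrophages. In Lyve1+ macrophages it went from 0.20 to -0.09 and -0.15. Each shift is larger than the Nrf2flox/flox Apoe ratio there, so the opposite signs of both Apoe pairs depend on the scaling. The Cd36 value in Nrf2flox/flox monocytes was under the fold with 1 more marker required (-0.42) and thinned (-0.07), and the values of Apoe in Nrf2Cdh5tKO and of Abca1 in Nrf2flox/flox Lyve1+ macrophages were under it in 4 and 2 of 12 alternatives.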

How the results depend on the processing

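Of 54 ratios past the fold, 33 stayed past it under each alternative except those added after seeing the data and 48 kept their sign. No paired analysis was possible because each condition had 1 library. All values below are log2 ratios. Fabp4 in endothelial cells (Nrf2flox/flox, then Nrf2Cdh5tKO) gave -1.88 and -2.51 with no upper limit on genes, -0.88 and -1.23 as a mean over cells, -0.95 and -1.17 thinned, -1.74 and -2.17 without the top cells, -0.52 and 0.26 in cells with Gpihbp1 and 0.23 and -1.38 in cells without it. In Nrf2flox/flox it gave -1.79 with mixed cells kept, -1.67 with TMM and -1.43 with free RNA subtracted, and in Nrf2Cdh5tKO -2.09 with 1 more marker required. Cd36 in Nrf2Cdh5tKO endothelial cells with Gpihbp1 gave 0.18. Apoe in smooth muscle cells gave -0.95 and -0.72 as a mean over cells, -2.61 and -0.98 with free RNA subtracted, -0.80 and -0.65 thinned, -1.46 (Nrf2flox/flox) with TMM, -1.52 (Nrf2flox/flox) without the top cells, and -0.71 and -0.26 (Nrf2Cdh5tKO) without Scrublet doublets and with mixed cells kept. Gpnmb in fibroblasts gave 0.83 (Nrf2flox/flox) thinned, 1.66 and 2.44 without Pi16, 1.30 and 0.69 with Cilp and 3.86 (Nrf2flox/flox) with Tfap2b. Signs turned for Fabp4 in Nrf2Cdh5tKO Lyve1+ macrophages (-0.13 without Scrublet doublets, -0.024 without the top cells), Cd36 in Nrf2Cdh5tKO smooth muscle cells (0.48 and 0.55 without doublets and with mixed cells kept), Gpnmb there (0.62 with mixed cells kept), Cd36 in Nrf2flox/flox fibroblasts (-0.35 with mixed cells kept, -0.68 with Penk), Spp1 in all macrophages (-1.03 with 1 more marker and -0.66 without the top cells in Nrf2flox/flox, 0.30 thinned in Nrf2Cdh5tKO), Fabp4 in Nrf2flox/flox fibroblasts with Comp (0.15) and Fabp5 in Nrf2Cdh5tKO fibroblasts with Cilp (0.094). The number of members lower in all macrophages became 1 in Nrf2Cdh5tKO with at most 10% mitochondrial UMIs, as a mean over cells, thinned and at a fold of 2, and 1 in Nrf2flox/flox with 1 more marker and thinned. Among other shifts, the number higher went from 6 to 4 in all macrophages of Nrf2flox/flox with 1 more marker and thinned, from 3 to 0 in Lyve1+ macrophages of Nrf2Cdh5tKO thinned, from 1 to 4 in fibroblasts of Nrf2Cdh5tKO with mixed cells kept and as a mean over cells, and from 4 to 2 in fibroblasts of Nrf2flox/flox thinned and with free RNA subtracted. The minimum of 30 UMIs was applied again to the thinned counts, so members could leave the count there for few UMIs. The Abcg1 ratio in Nrf2Cdh5tKO Lyve1+ macrophages stayed at least 1.5-fold in 12 of 12 alternatives, thinning among them (lowest 1.51). The cause of these shifts in number was otherwise not tested. Depth limits the small types: high-fat diet endothelial cells, monocytes and Lyve1-low macrophages held 15 to 39 cells a library.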
